A study of Rattus norvegicus with 6 samples.

Results

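Genes of the cell division cycle were examined in rat liver after a single feeding period on a low-protein diet. The members are 37 named genes of DNA replication, mitosis and cell cycle control, taken wherever the platform annotation gives a probe set exactly one symbol and that symbol is on the list. This gave 51 of 31042 probe sets, for 36 of 14217 genes. Rrm2 was the gene without such a probe set, since both of its probe sets carry a further symbol, and no value is given for it. For the 10 members with more than 1 probe set, the brightest over the 6 arrays was used. By role, 14 measured members act in DNA replication and its onset, 19 act in mitosis or mark dividing cells, and 3 are Ccnd1, Cdkn1a and Gadd45a.

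The samples are 3 livers of male Wistar rats fed the 5P diet, low in protein with energy matched to the control, and 3 livers of male Wistar rats fed the 15P control diet. Rats of both groups were bought at 6 weeks of age and about 150 g, had 4 days on pellets and were trained for another 4 days to eat the 15P diet in a daytime window. Each then received 5P or 15P for 8 hours, and its liver was taken after 16 hours of food withdrawal, so every sample is from a starved animal. RNA was hybridised to 1 Affymetrix array per sample, and the deposited value is an RMA intensity, a background-corrected and normalized brightness per probe set, given here as log2 intensity. The labels do not say outright that the 3 samples of a diet are 3 animals, so a p-value covers only the spread among samples. Median intensity was 33.3 to 34.2 on all arrays. On the first principal component (36.9% of the variance) the 5P arrays lay at 17.34 to 22.59 and the 15P arrays at -26.91, -22.45 and -10.11, with 15P replicate 3 nearest to the 5P side.

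A cell that divides first builds the MCM helicase onto origins in G1, then copies its DNA in S phase, and then assembles the spindle and separates its chromosomes in mitosis. Genes of the replication step are known, from human and mouse cells, to be driven by E2F factors, while mitosis genes are switched on later through the CHR element and CCAAT boxes bound by MuvB complexes and NF-Y. Adult hepatocytes are mostly quiescent, and dividing cells are a small share of normal liver.

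Promoters of both roles differed in the elements they hold. Windows of 300 bases, from 250 before to 50 after each start site, were available from RefSeq (GRCr8) for 30 of the 37 genes; none was given for Ccna2, Aurkb, Ube2c, Mcm4, Rrm2, Ccne2 and Ccnd1. Both strands were searched for the E2F sites GGCGGGA and GGCGCGA, the CHR element TTTGAA and the NF-Y box CCAAT. An E2F site was found in 7 of 12 replication promoters (58.3%) and 4 of 16 mitosis promoters (25%), against 13.7% of all 27457 promoters. The CHR element was found in 1 of 12 replication promoters (8.33%) and 12 of 16 mitosis promoters (75%), against 18.1% of all promoters. The NF-Y box was found in 7 of 12 replication promoters (58.3%) and 13 of 16 mitosis promoters (81.2%), against 37.7% of all. These matches describe the letters in the windows and no binding was measured.

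**Figure D1:**
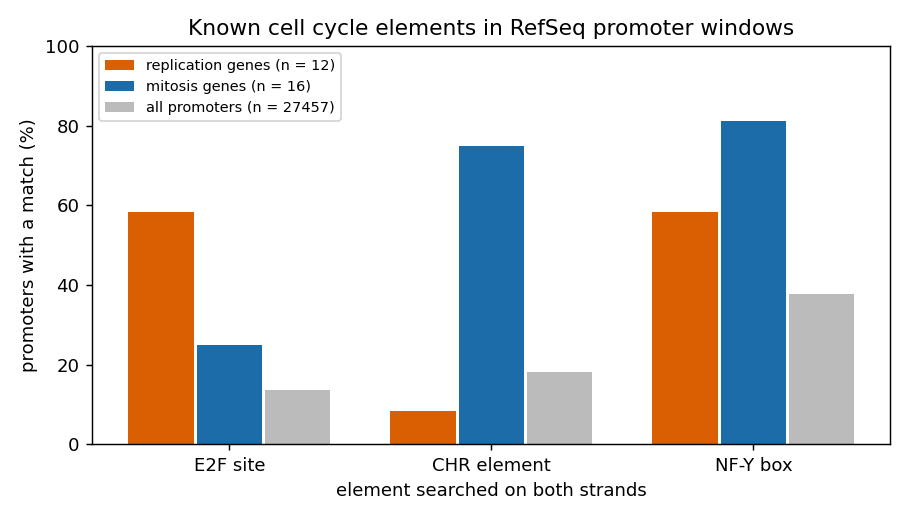
Share of RefSeq promoter windows, in percent, that hold each element, for replication genes, mitosis genes and all promoters. The E2F sequences searched were found in 58.3% of replication promoters and the CHR element in 75% of mitosis promoters.

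The promoters shown belong to the replication gene with the largest difference between diets (Mcm6), another member of the same helicase (Mcm5), the mitotic kinase gene Cdk1, and Cdkn3, the mitosis gene with the largest difference in the other direction. They lie at chr13:42404303-42404602 (- strand), chr19:13488563-13488862 (+ strand), chr20:19265043-19265342 (+ strand) and chr15:22502136-22502435 (+ strand) in GRCr8. Each is printed 5′ to 3′ on the strand of its gene, with the searched elements on either strand in capitals, and adjoining or overlapping matches run together.
Mcm6: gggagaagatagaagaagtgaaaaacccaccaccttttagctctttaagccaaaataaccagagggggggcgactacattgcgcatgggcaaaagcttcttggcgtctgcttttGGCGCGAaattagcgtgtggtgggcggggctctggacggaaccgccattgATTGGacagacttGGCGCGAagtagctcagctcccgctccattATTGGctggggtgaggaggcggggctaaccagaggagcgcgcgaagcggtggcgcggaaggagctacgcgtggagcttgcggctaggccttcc
Mcm5: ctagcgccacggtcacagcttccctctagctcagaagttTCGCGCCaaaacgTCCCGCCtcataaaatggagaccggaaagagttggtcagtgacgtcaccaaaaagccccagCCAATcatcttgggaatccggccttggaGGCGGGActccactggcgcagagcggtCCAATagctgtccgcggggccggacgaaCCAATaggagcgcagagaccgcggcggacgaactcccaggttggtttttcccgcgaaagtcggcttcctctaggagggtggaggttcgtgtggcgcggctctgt
Cdk1: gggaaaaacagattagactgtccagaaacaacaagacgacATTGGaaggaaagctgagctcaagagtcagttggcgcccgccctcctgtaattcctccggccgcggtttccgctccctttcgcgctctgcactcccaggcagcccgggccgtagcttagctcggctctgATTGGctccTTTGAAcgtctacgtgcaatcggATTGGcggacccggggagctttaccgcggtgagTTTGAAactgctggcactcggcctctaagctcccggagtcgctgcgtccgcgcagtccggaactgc
Cdkn3: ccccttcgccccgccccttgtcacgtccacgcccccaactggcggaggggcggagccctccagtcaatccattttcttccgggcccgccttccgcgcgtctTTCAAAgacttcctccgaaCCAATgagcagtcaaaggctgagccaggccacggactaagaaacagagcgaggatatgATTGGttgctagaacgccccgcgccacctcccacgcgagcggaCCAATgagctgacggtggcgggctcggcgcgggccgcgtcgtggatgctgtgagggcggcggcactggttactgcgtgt
Mcm6 holds 2 E2F sites and no CHR element, and Mcm5 holds 3 E2F sites. Cdk1 holds 2 CHR elements and Cdkn3 holds 1, and neither holds 1 of the 2 E2F sequences searched. Other forms of the E2F site were not searched. All 4 windows hold NF-Y boxes.

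No member passed the test between the diets, while replication genes were mostly higher in the mean in 5P livers and mitosis genes had a median difference near that of all genes. Differences were tested with limma over all 31042 probe sets with Benjamini-Hochberg adjustment, and an adjusted p under 0.05 was reached by 0 of 51 member probe sets and 0 of 36 member genes. Over the whole array 0.132% of probe sets and 0.183% of genes passed. At an unadjusted p under 0.05 there were 10 member probe sets, 9 higher and 1 lower, where 15.4% of all probe sets reached it. Of the 14 replication genes 13 were higher in 5P livers, with 0.45 as the median log2 fold change, and of the 19 mitosis genes 16 were higher, with a median of 0.07. Over all genes 57.6% were higher and the median was 0.03. The count for mitosis depended on which arrays were used. Without 5P replicate 2 it was 7 of 19, with a median of -0.04. Without 15P replicate 3 it was 11 of 19, and without 15P replicate 2 it was 12 of 19. The count for replication without 5P replicate 2 was 13 of 14, with a median of 0.30.

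Signal was low for much of the mitosis list. The deposited values carry no detection call, so brightness was set against 28 probe sets of olfactory, vomeronasal and taste receptor genes. These are genes of sensory tissue, taken as a level with little liver RNA. The brightest of the 28 had a mean log2 intensity of 7.48, so the level is a rough guide. The 95th percentile of the receptor probe sets was a log2 intensity of 4.53 (an intensity of 23.1), and 40.5% of all probe sets lay below it. Of the mitosis genes 7 of 19 lay below that level (Mki67, Ccna2, Bub1b, Aurkb, Bub1, Cenpf and Ccnb1), against 1 of 14 replication genes (Gmnn) and none of Ccnd1, Cdkn1a and Gadd45a. The median mitosis gene sat at the 42.4th percentile of brightness and the median replication gene at the 61.5th. Brightness of different probe sets is not a measure of relative RNA amount. Among the 12 mitosis genes above the receptor level 9 were higher in 5P livers, with a median of 0.09.

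**Figure D2:**
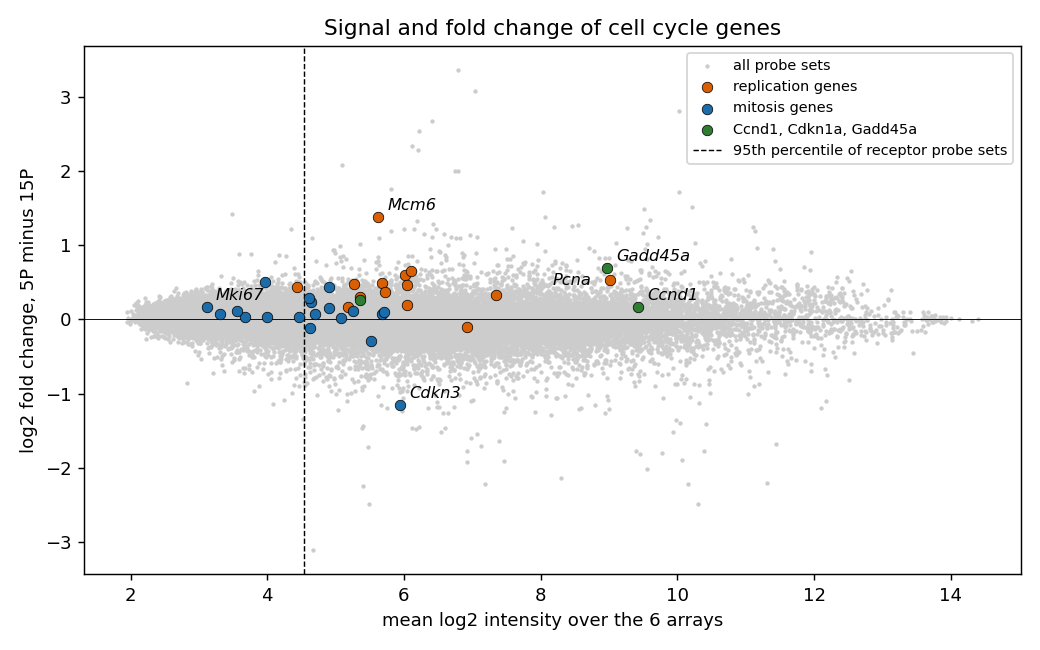
Log2 fold change (5P minus 15P) against mean log2 intensity over the 6 arrays, for all probe sets (grey) and the member genes (coloured by role); the dashed line marks the 95th percentile of receptor probe sets, 4.53. Of the members Mcm6 lies highest at 1.38 and Cdkn3 lowest at -1.15, and 7 mitosis genes lie left of the line.

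The MCM helicase, the ring of Mcm2 to Mcm7 that unwinds DNA ahead of the fork, had all 6 subunit genes higher in 5P livers in the mean, with log2 fold changes from 0.30 to 1.38, and none passed. Mcm6 had the largest difference of all members. It read 6.60, 7.34 and 4.99 (log2 intensity) on 5P replicates 1, 2 and 3, against 4.83, 5.29 and 4.69 on 15P replicates 1, 2 and 3. 5P replicates 1 and 2 were well above all controls, and 5P replicate 3 lay inside the control range. Its log2 fold change by limma was 1.38 (SE 0.501, 95% interval 0.23 to 2.52, 2.59-fold, adjusted p = 0.249); it was 2.04 without 5P replicate 3 (adjusted p = 0.0687) and 0.86 without 5P replicate 2 (adjusted p = 0.431). Mcm4 was likewise high on 5P replicates 1 and 2 and below all controls on 5P replicate 3, at 6.65, 7.05 and 5.61 on the 5P arrays against 5.76, 5.90 and 5.68 on the 15P arrays. The difference was 0.66 on the log2 scale (SE 0.310, adjusted p = 0.355), with 1.07 without 5P replicate 3 (adjusted p = 0.0854) and 0.35 without 5P replicate 2 (adjusted p = 0.609). Mcm5 did not overlap between the groups, with 6.35, 6.45 and 6.00 on the 5P arrays and 5.82, 5.88 and 5.72 on the 15P arrays. The log2 fold change of Mcm5 was 0.46 (SE 0.126, adjusted p = 0.160). Mcm2 read 5.99, 6.25 and 5.50 on the 5P arrays against 5.67, 5.51 and 5.43 on the 15P arrays, 0.37 higher on the log2 scale (SE 0.176, adjusted p = 0.354). For Mcm2, Mcm3 and Mcm7 the value of 5P replicate 3 was within the control range, and Mcm7 and Mcm3 had log2 fold changes of 0.32 and 0.30. Without 5P replicate 2 the log2 fold changes of Mcm2, Mcm7 and Mcm3 were 0.21, 0.17 and 0.09.

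The clamp and the nuclease of the fork, and the licensing inhibitor geminin, were also higher in the mean. Pcna, the sliding clamp that holds DNA polymerase on its template, read 9.24, 9.57 and 9.03 on the 5P arrays, against 8.79, 8.79 and 8.65 on the 15P arrays. All 3 low-protein arrays were above all 3 controls. The log2 fold change of Pcna was 0.53 (SE 0.138, 1.45-fold, adjusted p = 0.149), the smallest adjusted p of any member. Fen1, the nuclease that trims Okazaki fragments, read 6.18, 6.69 and 6.06 on the 5P arrays against 5.64, 5.58 and 5.91 on the 15P arrays. The groups again did not overlap, and the log2 fold change was 0.60 (SE 0.170, adjusted p = 0.169). Gmnn, which encodes geminin, the inhibitor of a further round of origin licensing, read 4.77, 4.80 and 4.38 on the 5P arrays and 4.16, 4.24 and 4.23 on the 15P arrays, at a low brightness. Its log2 fold change was 0.44 (SE 0.122, adjusted p = 0.164), while its other probe set gave -0.19.

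The E-type cyclins, which activate CDK2 at the start of S phase, were also higher in the mean. Ccne1 read 6.14, 5.95 and 5.65 on the 5P arrays, against 5.25, 5.61 and 5.42 on the 15P arrays. The groups did not overlap, with 5P replicate 3 close to 15P replicate 2, and the log2 fold change was 0.49 (SE 0.146, adjusted p = 0.185). Ccne2 differed by 0.47 on the log2 scale (SE 0.211, adjusted p = 0.334), or 0.24 without 5P replicate 2, and its dimmer probe set gave -0.03.

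Enzymes that supply deoxynucleotides differed less. Rrm1, the large subunit of ribonucleotide reductase, differed by 0.19 on the log2 scale (SE 0.109), and Tyms, which makes thymidylate, by 0.17 (SE 0.138). Without 5P replicate 2 these were 0.12 and 0.01. Tk1, the thymidine salvage kinase, was the replication gene with a lower mean in 5P livers. Its 3 probe sets gave log2 fold changes of -0.10, -0.09 and -0.10, and the brightest had a 95% interval of -0.42 to 0.22 (adjusted p = 0.786); without 5P replicate 3 it was 0.06.

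In all, 5 of 14 replication genes (Pcna, Fen1, Gmnn, Mcm5 and Ccne1) had every 5P array above every 15P array, and none had every 5P array below, where 12.8% and 10.1% of all genes did. An unadjusted p under 0.05 was reached upward by 6 replication genes, these 5 and Mcm6, and by 8.41% of all genes. Without 5P replicate 3, 11 of 14 replication genes had every 5P array above every 15P array, as did 17.1% of all genes.

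Of the mitosis genes 16 of 19 were higher in the mean in 5P livers, by up to 0.50 (log2, Bub1), and 3 were lower, Cdkn3 by far the most, and with an array left out 11 of 19 turned sign. Cdk1, the kinase that starts mitosis, read 4.94, 5.80 and 4.63 on the 5P arrays against 4.85, 4.69 and 4.50 on the 15P arrays. The difference came mainly from 5P replicate 2, at 0.44 on the log2 scale (SE 0.263, adjusted p = 0.460), or 0.10 without that array. Ccnb1, the cyclin partner of CDK1, read 4.23, 4.96 and 4.26 on the 5P arrays against 4.60, 4.52 and 4.25 on the 15P arrays. Its log2 fold change was 0.03 (95% interval -0.42 to 0.48, adjusted p = 0.965), and -0.21 without 5P replicate 2. Mki67, the gene of the proliferation marker Ki-67, read 3.11, 3.55 and 2.92 on the 5P arrays and 3.41, 2.94 and 2.75 on the 15P arrays, all below the receptor level. The log2 fold change of Mki67 was 0.16 (95% interval -0.30 to 0.63, adjusted p = 0.746), and -0.02 without 5P replicate 2. Top2a, the topoisomerase that untangles sister chromatids, read 4.71, 5.05 and 4.50 on the 5P arrays against 4.59, 4.52 and 4.26 on the 15P arrays. The groups overlapped, and the log2 fold change was 0.29 (SE 0.152, adjusted p = 0.396), or 0.15 without 5P replicate 2.

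Bub1 was dim, while the brightest probe sets of Cdc20 and Nusap1 lay above the receptor level. Bub1, a spindle checkpoint kinase, read 4.17, 4.66 and 3.82 on the 5P arrays against 4.03, 3.60 and 3.52 on the 15P arrays, higher by 0.50 on the log2 scale (SE 0.216, adjusted p = 0.320), or 0.28 without 5P replicate 2. Its values lay below the receptor level on every array except 5P replicate 2. Cdc20, the activator of the anaphase-promoting complex, read 4.65, 4.99 and 4.62 on the 5P arrays and 4.49, 4.47 and 4.58 on the 15P arrays. It was the only mitosis gene whose groups did not overlap, 1 of 19 (5.26%), where 12.8% of all genes had every 5P array above every 15P array. Its log2 fold change was 0.24 (SE 0.116, adjusted p = 0.368), or 0.12 without 5P replicate 2, and its 4 dimmer probe sets ranged from -0.15 to 0.11. Nusap1, a spindle microtubule protein, had 0.07 on its brighter probe set and 0.42 on the other (adjusted p = 0.283 by limma). The groups did not overlap on that other probe set, which lay below the receptor level.

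Cdkn3, the gene of a phosphatase that acts on CDK1 and CDK2, differed in the opposite direction to most members. It read 5.40, 6.12 and 4.59 on the 5P arrays, against 7.07, 6.41 and 6.08 on the 15P arrays. The highest 5P array slightly exceeded the lowest 15P array, and the other 5P arrays were below all controls. The log2 fold change was -1.15 (SE 0.373, 95% interval -2.01 to -0.30, 2.22-fold lower in 5P), with an adjusted p = 0.207 by limma. It ran from -1.53 without 5P replicate 2 to -0.76 without 5P replicate 3. Cdkn3 was the member with an unadjusted p under 0.05 downward, where 8.02% of all genes were. Ccnb2, a further mitotic cyclin, read 5.33, 5.72 and 5.07 on the 5P arrays against 6.03, 5.76 and 5.23 on the 15P arrays, and its log2 difference was -0.29 (SE 0.223, adjusted p = 0.564), with -0.12 without 15P replicate 1 and -0.52 without 15P replicate 3. The remaining mitosis genes were Aurka, Aurkb, Birc5, Bub1b, Ccna2, Cenpf, Kif11, Plk1, Prc1 and Ube2c. They encode kinases, a motor, a cyclin (Ccna2), a ubiquitin-conjugating enzyme and other spindle or kinetochore proteins. Their log2 fold changes ran from -0.12 (Kif11) to 0.16 (Ube2c).

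**Figure D3:**
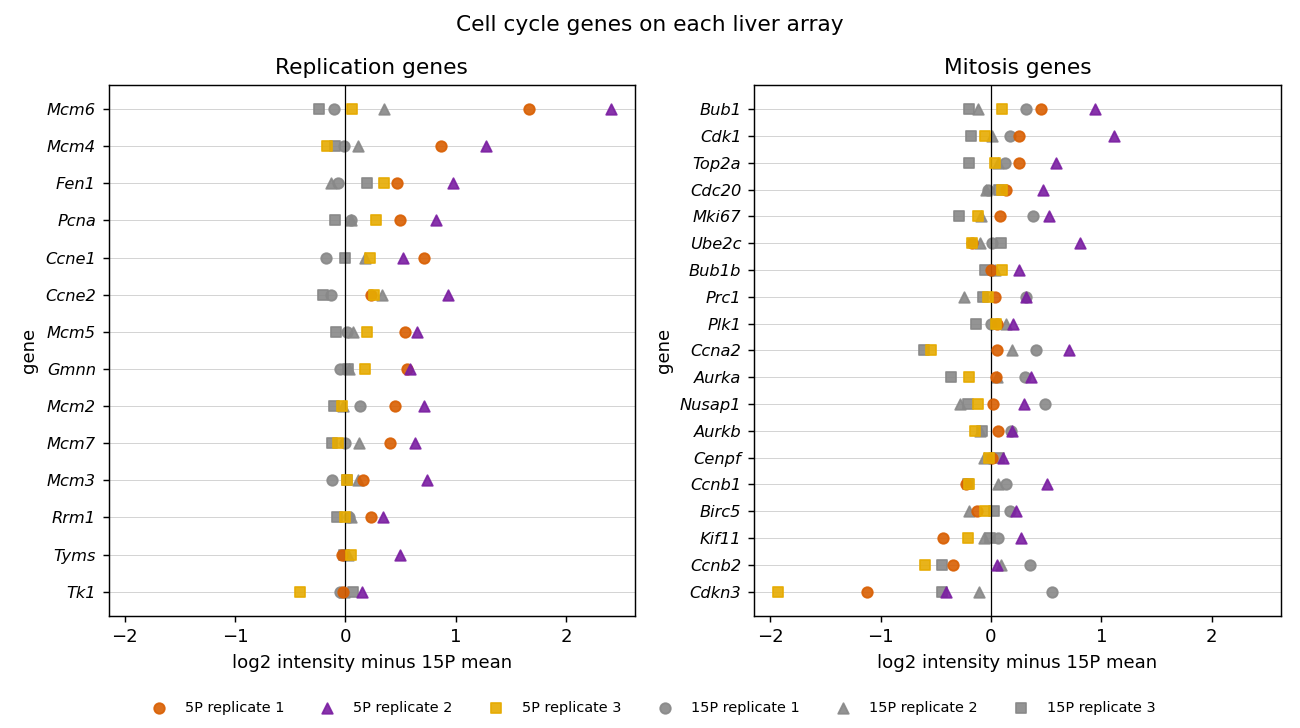
Log2 intensity of each replication gene (left) and mitosis gene (right) on each array, minus the mean of its 3 15P arrays; 5P arrays are coloured and 15P arrays grey. On 5P replicate 2 (purple triangles) 13 of 14 replication genes and 16 of 19 mitosis genes have their highest value.

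One low-protein array carried the highest signal of most cell cycle genes. 5P replicate 2 was the highest of the 6 arrays for 31 of 36 members, 13 of 14 in replication and 16 of 19 in mitosis, where it was the highest for 17% of all genes. On 5P replicates 1, 2 and 3 there were 11, 14 and 6 replication genes above all 15P arrays, where the shares of all genes were 29.1%, 31.1% and 37.9%. The counts of mitosis genes above all 15P arrays were 4, 15 and 2. Averaged over the replication genes, the 5P arrays stood 0.48, 0.80 and 0.06 (log2) from the 15P mean, and the 15P arrays -0.04, 0.09 and -0.05. Averaged over the mitosis genes, the 5P arrays stood at -0.05, 0.40 and -0.21, and the 15P arrays at 0.21, -0.04 and -0.17. The replication average of 5P replicate 3 thus lay within the range of the controls, and the mitosis averages of the groups overlapped widely. The SD over arrays was larger in 5P than in 15P livers for all 14 replication genes, and for 50.1% of all genes.

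**Figure D4:**
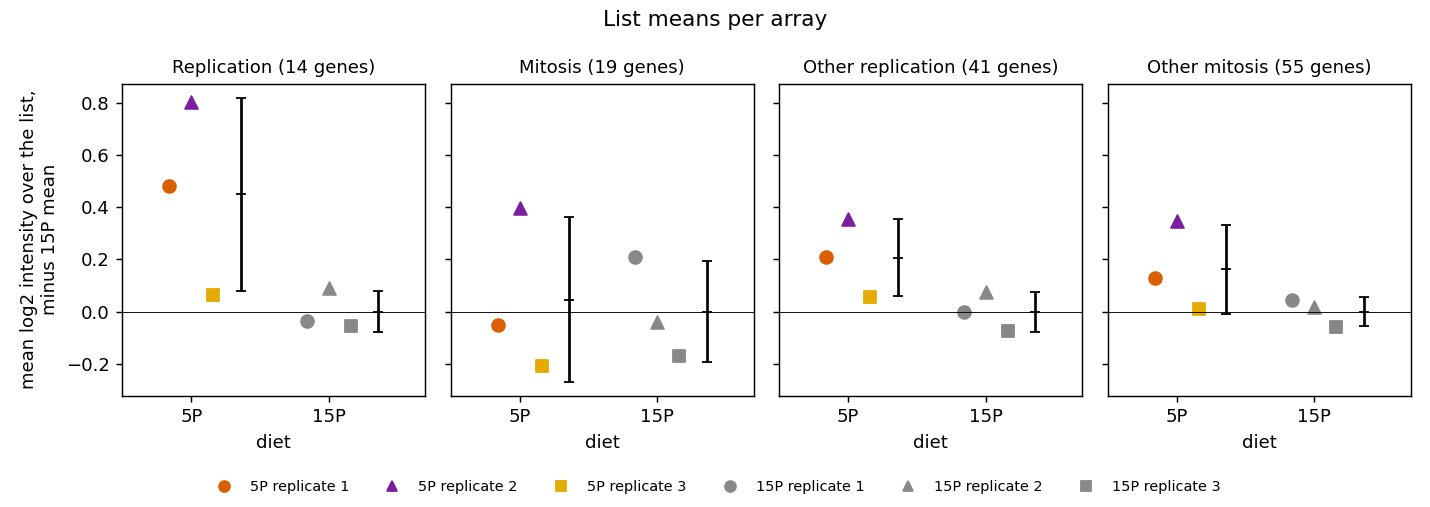
Mean log2 intensity on each array over the replication and mitosis members and the further genes of both pathways, minus the 15P mean, with the mean and SD of the 3 arrays of each diet beside the points. The 5P arrays spread from 0.06 to 0.80 for replication genes and from -0.21 to 0.40 for mitosis genes.

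Within each array the replication average was set against the mitosis average. The difference, replication minus mitosis, was 0.53, 0.40 and 0.27 on 5P replicates 1, 2 and 3, against -0.25, 0.13 and 0.12 on 15P replicates 1, 2 and 3. All 3 low-protein arrays were above all 3 controls. The median log2 fold change of mitosis minus that of replication was -0.38, and from -0.42 to -0.25 with single arrays left out. In the further genes of both pathways this contrast was nearly absent. The 41 further replication genes averaged 0.21, 0.35 and 0.06 on the 5P arrays, and -0.001, 0.08 and -0.08 on the 15P arrays. The 55 further mitosis genes had almost the same pattern, at 0.13, 0.35 and 0.01 on the 5P arrays and 0.04, 0.02 and -0.06 on the 15P arrays. Their difference, replication minus mitosis, was 0.08, 0.0064 and 0.05 on the 5P arrays against -0.05, 0.06 and -0.02 on the 15P arrays, so the groups overlapped. The difference between the lists was not tested.

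**Figure D5:**
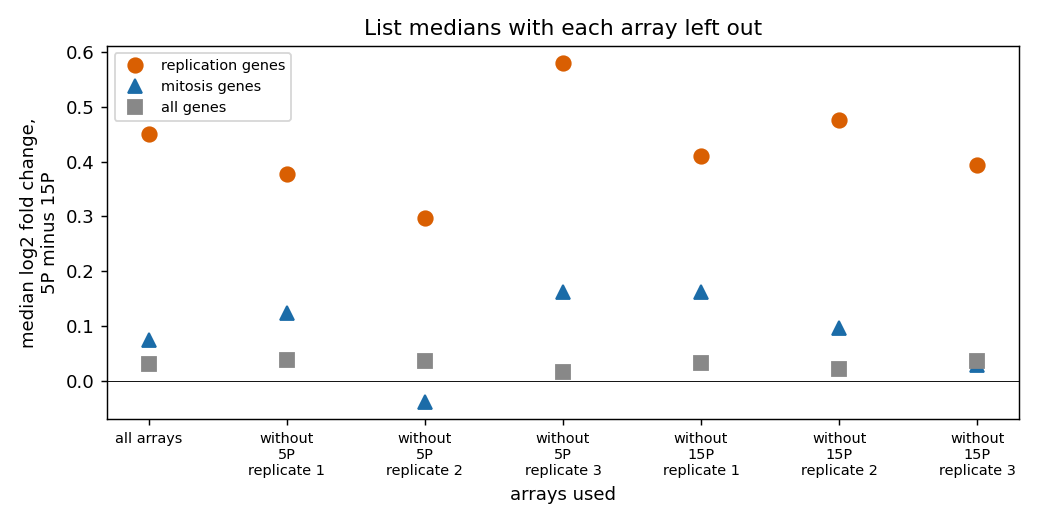
Median log2 fold change (5P minus 15P) of replication genes, mitosis genes and all genes, with all arrays and with each array left out. Replication medians run from 0.30 to 0.58 and mitosis medians from -0.04 to 0.16 with an array left out.

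Ccnd1, Cdkn1a and Gadd45a, which act at G1 and in growth arrest, did not pass either. Ccnd1, the cyclin that answers growth signals in G1, read 9.65, 9.93 and 8.95 on the 5P arrays, against 8.73, 9.61 and 9.69 on the 15P arrays. Both groups spanned about the same range, and the log2 fold change was 0.17 (95% interval -0.53 to 0.86, adjusted p = 0.834), with 0.50 and 0.35 on the other Ccnd1 probe sets. It was -0.14 without 15P replicate 1 and -0.04 without 5P replicate 2. Cdkn1a, the gene of the CDK inhibitor p21, read 5.64, 5.72 and 5.12 on the 5P arrays against 5.02, 5.40 and 5.28 on the 15P arrays, higher by 0.26 on the log2 scale (SE 0.169, adjusted p = 0.496), with 0.15 without 5P replicate 2 and 0.45 without 5P replicate 3. Its dimmer probe set gave -0.06. Gadd45a, a stress-induced growth arrest gene, read 9.55, 8.72 and 9.68 on the 5P arrays against 8.86, 8.93 and 8.09 on the 15P arrays. Unlike most members it was lowest of the low-protein arrays on replicate 2, and its log2 fold change was 0.69 (SE 0.289, 1.61-fold, adjusted p = 0.308), with 0.99 without that array (adjusted p = 0.194) and 0.42 without 15P replicate 3 (adjusted p = 0.453).

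Of the other genes of the same pathways, the further replication genes had a smaller median than the replication members (0.20 against 0.45) and the further mitosis genes a larger one than the mitosis members (0.15 against 0.07). None of 41 further replication genes, 55 further mitosis genes, 30 G1 control genes and 21 p53 and growth arrest genes passed by limma. An unadjusted p under 0.05 was reached upward by 12, 11, 6 and 2 of them, in that order, and by 8.41% of all genes. Downward it was reached by 1, 2, 1 and 1 of them, and by 8.02% of all genes. Median log2 fold changes were 0.11 for G1 control and 0.03 for p53 and growth arrest genes. Rfc4, a subunit of the clamp loader that places PCNA on DNA, had the smallest p among the further replication genes. It read 6.84, 7.01 and 6.88 on the 5P arrays, against 6.44, 6.40 and 6.29 on the 15P arrays, so that every 5P array, replicate 3 included, was above every 15P array. The log2 fold change of Rfc4 was 0.54 (SE 0.092, adjusted p = 0.0696). Rpa2, of the complex that coats single-stranded DNA, had 0.41 (SE 0.112), and Chaf1b, of the chromatin assembly factor behind the fork, had 0.32 (SE 0.092). Among mitosis genes Stmn1, a microtubule-destabilising protein, had 0.64 (SE 0.138, adjusted p = 0.101), and Gtse1 and Kntc1 had 0.53 and 0.47. The transcription factor gene E2f1 had 0.54 (SE 0.157, adjusted p = 0.177), the retinoblastoma relative Rbl1 had 0.86 (SE 0.289), and Wee1, the kinase that holds back CDK1, had 0.36 (SE 0.134). Xpc, of DNA damage recognition, had -0.72 (SE 0.141, adjusted p = 0.0858), Phlda3 had 0.48 (SE 0.181) and the stress-induced Ddit4 had 0.67 (SE 0.275).

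The hepatocyte markers were bright, as the liver label says, and markers of several other cells differed between the arrays. All 8 hepatocyte markers, from Alb to Tat, lay at or above percentile 93.6 of brightness, and their summed intensity was 81030 to 82240 on 5P arrays and 82770 to 85530 on 15P arrays. Of 7 red cell markers 6 were higher in the mean and 0 passed by limma. An unadjusted p under 0.05 was reached by 2 of them, both upward, and by 8.41% of all genes upward. The red cell markers had a summed intensity of 4093 to 4356 on 5P arrays against 2900 to 3156 on 15P arrays. It came mostly from Hbb (log2 fold change 0.48, adjusted p = 0.0739). The red cell list averaged 0.23, 0.28 and 0.12 above the 15P mean on 5P replicates 1, 2 and 3. Alas2, the heme synthesis enzyme of red cell precursors, was well above the receptor level at a mean log2 intensity of 5.64, with every 5P array above every 15P array (log2 fold change 0.43, SE 0.099, adjusted p = 0.112). Ahsp, Epb42 and Gata1, 3 of the 7, lay below the receptor level, with log2 fold changes of 0.32, -0.06 and 0.01, and Klf1 and Slc4a1 lay just above it, with 0.15 and 0.14. Of 6 macrophage markers 5 were higher in the mean, 1 of them (Cd5l) by a log2 fold change of only 0.009. An unadjusted p under 0.05 by limma was reached by 0 of the 6, and by 8.41% of all genes upward. The macrophage markers had a summed intensity of 2907 to 4125 in 5P and 2574 to 3113 in 15P livers, highest on 5P replicate 3. Of 5 bile duct markers 4 were lower, 1 of them (Spp1) by a log2 fold change of only -0.006, and 0 passed by limma. An unadjusted p under 0.05 was reached by 2 of them, both downward, and by 8.02% of all genes downward. The bile duct markers had a sum of 211.7 to 294.1 in 5P and 263 to 424.6 in 15P livers. Summed intensity was 210.6 to 240.7 in 5P and 214.6 to 225.8 in 15P livers for 8 T and NK cell markers, 5 of them below the receptor level. It was 28.7 to 33.9 in 5P and 23.7 to 30.01 in 15P livers for 2 B cell markers, and both of these markers lay below that level. It was 75.5 to 109 in 5P and 70.4 to 202.5 in 15P livers for 3 neutrophil markers, 1306 to 1709 in 5P and 1377 to 1706 in 15P livers for 5 endothelial markers, and 473.2 to 672.5 in 5P and 427.7 to 579.8 in 15P livers for 6 stellate markers. The part of these cells in the members' values was not tested. In bulk tissue fewer cells of a type and less RNA per cell cannot be told apart.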

How the data were processed

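Rat liver RNA, 3 samples per diet, was labelled with a 3' IVT kit and read on Affymetrix arrays, per the labels' protocols. The deposited intensity values, 1 per probe set and array, came from RMA according to the deposited series' tool list (per the submitters' processing notes), whose software and version the sources used here do not state. RMA equalises the arrays, so a shift shared by most genes would be hidden. The intensities ran from 3.61 to 21668, a linear scale, and log2 was taken.

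Of 31099 probe sets 57 control probe sets were left out. Names came from the platform annotation (20826 probe sets with 1 symbol, 436 with several, 9780 unnamed here); gene IDs of 20758 matched RefSeq (GRCr8) and 0 symbols differed. 5P was compared with 15P with limma 3.58.1 in R 4.3.3 (lmFit, eBayes, two-sided, 8.38 degrees of freedom with the prior), Benjamini-Hochberg over 31042 probe sets, threshold 0.05. Log2 fold changes are 5P minus 15P. The procedure was tested on simulated data: over 31042 probe sets it recovered 98 of 100 changed by 1 (log2) and 100 of 100 changed by 2, with 14 false calls. The simulated noise was normal and equally wide in both diets, and the changed probe sets were drawn at random. Over all probe sets the median SD among 5P arrays was 0.12, against 0.31 for the replication genes. Changes under 1 were not simulated, and the median log2 fold change of the replication genes was 0.45. The recovery therefore does not carry over to members that vary more or differ by less.

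The members and lists were chosen with earlier results of these data known. Per-array values are given for 9 measured genes named by rule (Ccnd1, Cdkn1a, Gadd45a, Mki67, Top2a, Ccnb1, Cdk1, Pcna, Mcm2) and the 6 replication and 6 mitosis genes of smallest p; other pathway genes are the 3 of smallest p per list. Mcm4 and the genes described by fold change alone were chosen after their values were seen. Same-numbered arrays of the diets did not deviate together (correlations -0.0874, -0.0272 and -0.102), so no pairing by number was seen. These correlations cover whole arrays, centred within each diet, and could miss a pairing that touches few genes. Alternatives were another prior variance, centring, quantile normalization, leaving out the dimmest 25% or 50% of probe sets, log2(value + 16), array weights, the replicate block, each array left out, and genes as the mean of their probe sets or the one of largest SD. Promoter sequences are RefSeq's (GRCr8); figures used matplotlib 3.10.9 in Python 3.11.15.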

Additional observations from a re-analysis of the deposited data

How the results depend on the processing

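The count of members past the test was 0 under all 16 probe set and all 18 gene alternatives run, over 51 probe sets and 36 genes, except that the filter at the 25th percentile left 43 and 32 and that at the 50th left 24 and 21, and that of the other pathway genes was 0 in all 18 as well. The smallest adjusted p of any member was 0.0687 (Mcm6, without 5P replicate 3). Over the whole array the count of 41 probe sets was 103 with a robust prior variance, 78 with median centring, 102 with array weights, 0 with log2(value + 16) (by limma, with 4913 at an unadjusted p under 0.05) and 6 with the replicate block, and 16 (without 5P replicate 2) to 109 (without 15P replicate 3) with an array left out. No pairing of the samples by number was seen, and under the replicate block no member passed either. The replication median kept its sign in all 18, from 0.30 to 0.58; the mitosis median ran from -0.04 to 0.16. With an array left out, 13 to 14 of the 14 replication genes were higher, and 5 to 11 had every 5P array above every 15P array (11 without 5P replicate 3, where 17.1% of all genes did). Of the 19 mitosis genes 7 to 17 were higher, and 1 to 4 had every 5P array above, where 17.1% to 21.8% of all genes did. Among the members, 13 of 36 turned sign with an array left out (11 in mitosis, Tk1 in replication, and Ccnd1). Of the genes with values per array, signs turned for Ccnb1, at -0.015 with quantile normalization, -0.015 with array weights and from -0.21 to 0.15 with an array left out, for Ccnd1 from -0.14 to 0.45 and for Mki67 from -0.016 to 0.35, both with an array left out. The cause was not tested. Dim signal limits the mitosis genes most, since 7 of 19 lay below the receptor level.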
